A study of Arabidopsis thaliana with 6 samples.

Results

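The cysteine-rich receptor-like kinases (CRKs) were taken as a fixed list of 42 Arabidopsis locus numbers, defined by gene family. Earlier results of these data were known when the list was chosen. All 42 were present among the 32548 genes of the deposited expression table, and 41 of them reached a mean adjusted read count of 1 in some genotype and so were among the 23685 genes that entered the test. The remaining member, CRK1 (also named RKF2), was listed at 0 in all 6 libraries.

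A typical CRK spans the plasma membrane. Outside the cell it carries repeats of a cysteine-containing domain (DUF26), and inside the cell a serine/threonine kinase. CRK genes are known as targets of salicylic acid, pathogen and reactive oxygen signals in leaves, and several CRK proteins act beside the pattern receptors of the immune system or in the response to abscisic acid (ABA).

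RNA was sequenced from 20-day-old plants of the Col-0 ecotype, labelled as seedlings, in 3 genotypes with 2 independent libraries each. The wild-type was compared with hda19, which carries a homozygous T-DNA insertion (SALK_139445) in the gene of the histone deacetylase HDA19, and with hdip1/2/3, a CRISPR-Cas9 triple mutant of the genes for 3 homologous HDA19-interacting proteins, made by bringing the hdip2 mutation into an hdip1/3 double mutant. Each mutant was represented by 1 line, and no treatment was applied. The comparison asked how loss of HDA19 or of HDIP1/2/3 alters transcript levels, here within 1 receptor kinase family.

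Between 43906641 and 48407739 reads fell on genes in each library, and the 10 most abundant genes took 7.05% to 9.80% of them. For HDA19 itself (AT4G38130), adjusted counts were 4298 and 4416 in wild-type plants, 2832 and 4561 in hda19 plants, and 4893 and 5206 in hdip1/2/3 plants. A gene-level count does not show an insertion or a small edit, so these levels do not check the labels, and genotypes are named throughout as the libraries are labelled. The 5 leaf markers summed to between 1543775 and 2719817 adjusted counts per library. The 7 root markers summed to at most 26.1, with the root hair genes EXPA7 and EXPA18 at 0 in all libraries, so the defining markers of root tissue were nearly absent from material labelled as seedlings. Of 2 markers of senescing leaves, SAG12 was at 0 throughout, and SAG13 rose in both mutants, standing at 600 and 517 (wild-type), 3668 and 3249 (hda19), and 3023 and 1831 (hdip1/2/3), with limma P values adjusted by Benjamini-Hochberg of 0.00403 and 0.00625. The part of leaf age in the results on CRK genes was not tested. In bulk RNA, fewer cells of a type and less RNA per cell cannot be told apart.

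Most of the family lies on chromosome 4, which held 37 of the 42 genes. Of these, 20 form a tandem array from AT4G23130 (CRK5) to AT4G23320 (CRK24), 5 lie between AT4G11460 (CRK30) and AT4G11530 (CRK34), and 5 between AT4G04490 (CRK36) and AT4G04570 (CRK40). The other 12 members lie outside these arrays. Annotated transcripts were 1612 to 4004 nt long, with a median of 2328 nt among the tested members and 1615 nt among all tested genes.

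Because WRKY transcription factors act in the same defence responses as CRKs, the 500 bases before each RefSeq gene start were searched for the W-box core, the letters TTGAC on either strand (GTCAA when read on the other). At least 1 core was found before 36 of the 42 members (85.7%), against 67.4% of the 27444 protein-coding genes in the table, and 3 or more cores before 15 members (35.7%), against 13.2%. The core of the ABA-responsive element, ACGTG on either strand, stood before 35.7% of members and 35.5% of all genes, and the as-1 core, TGACG on either strand, before 47.6% and 32.0%. The as-1 and W-box letters overlap in TTGACG. Base composition was not matched, and some of these windows reach into a neighbouring gene. The site nearest the gene start is shown for each member with a call in a mutant that had one, and for CRK11, which together with CRK5 had the most cores (6). Capitals mark only the W-box core nearest the gene start, and a further core in the stretches of CRK41, CRK37 and CRK11 is in small letters. Each sequence reads in the direction of its gene on the RefSeq assembly TAIR10.1.
CRK41, chr4:418258-418287, plus strand, core 57 bases before the gene start: tactttgacgtaGTCAAaaacacgtcacgt
CRK37, chr4:2238281-2238310, plus strand, core 77 bases before the gene start: acacctagtcaaGTCAActagtacccattt
CRK7, chr4:12125568-12125597, plus strand, core 84 bases before the gene start: cattgagtttgaTTGACgactgactttaaa
CRK20, chr4:12174627-12174656, plus strand, core 94 bases before the gene start: gactttctttgaTTGACttatagccgtcag
CRK15, chr4:12160357-12160386, minus strand, core 95 bases before the gene start: cttatagtagtaGTCAAtcctctgtttcac
CRK11, chr4:12143877-12143906, minus strand, core 36 bases before the gene start: tgactttgacttTTGACactcgttttcgtg
The CRK41 window lies in a stretch with 5 W-box cores, 6 ABA-element cores and 3 as-1 cores in its 500 bases. CRK45, which rose in both mutants, had 0 W-box cores, 2 ABA-element cores and 1 as-1 core. These matches describe letters only.

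CRK levels spanned more than 3 orders of magnitude, as the plot of all tested members shows. Per kb of transcript, CRK40 was the most abundant member, with 1134 to 1503 adjusted counts per kb over the 6 libraries. CRK21 followed with 1013 to 1372 per kb and CRK9 with 839 to 1372 per kb. The ranges of these 3 genes overlapped, so their order was not separated by the spread between libraries. CRK9 is annotated as a receptor-like protein kinase-related gene and consists of a single exon. Neither CRK40 nor CRK9 passed the test in a mutant: the log2 differences of CRK40 were 0.15 ± 0.15 in hda19 and 0.03 ± 0.15 in hdip1/2/3, and those of CRK9 were 0.12 ± 0.15 and 0.48 ± 0.15 (limma adjusted P of 0.752 and 0.0891). With the trend with transcript length and GC content removed, the value of CRK40 in hdip1/2/3 was 0.31 (adjusted P = 0.0696). At the other end, CRK33 had 0 reads in every library except 2 reads in hdip1/2/3 replicate 2, and CRK25 had 0 to 2 reads per library. A mean under 10 in every genotype was found for 3 tested members, and no statement about the mutants can rest on those.

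**Figure D1:**
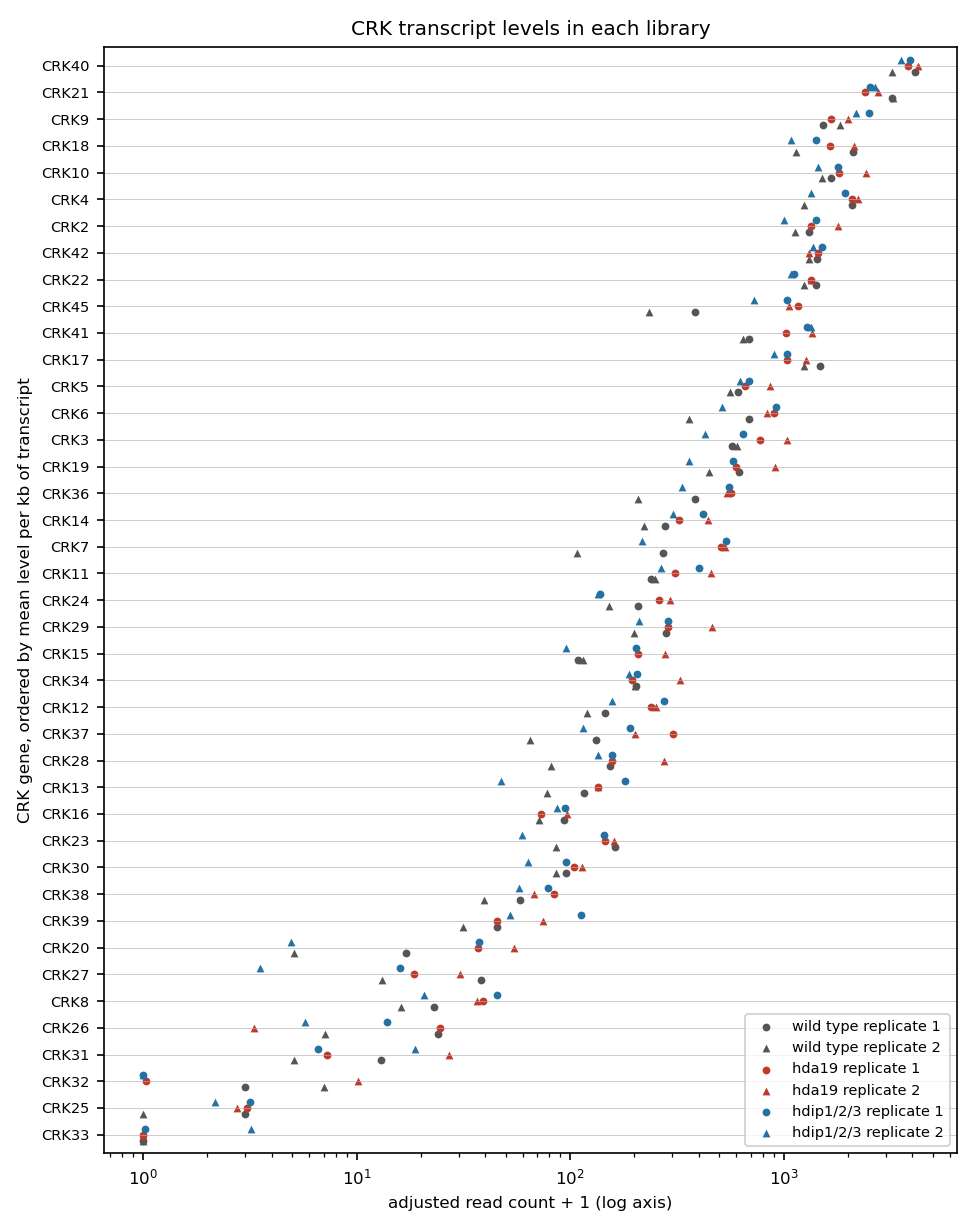
Adjusted read count plus 1 (log axis) of the 41 tested CRK genes in each of the 6 libraries, ordered from the lowest (bottom) to the highest (top) mean level per kb of transcript. Grey, wild-type; red, hda19; blue, hdip1/2/3; circles, replicate 1; triangles, replicate 2. CRK45 and CRK41 are the members whose 4 mutant points lie clear of both wild-type points with an adjusted P under 0.05 in each mutant.

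In hda19, 2 members rose at an adjusted P under 0.05, CRK45 and CRK41 (2.15% of all tested genes rose), and none fell (0.688%). By the call rule of the study, a log2 fold change beyond 1 with an unadjusted P under 0.05, 5 members were called up, CRK7, CRK15, CRK20, CRK37 and CRK45 (4.65% of all tested genes), and 0 were called down (2.09%). With no fold limit, 12 members were higher at an unadjusted P under 0.05 (9.97% of all tested genes) and 1 was lower (7.67%). The fitted difference was above 0 for 36 members, below 0 for 4 and exactly 0 for CRK33, whereas 48.9% of all tested genes were above 0. The median log2 fold change of the 41 members was 0.50 (quartiles 0.15 and 0.80), against 0.00 for all tested genes and for the 9923 tested genes with transcripts of 1600 to 3100 nt. Both hda19 libraries lay above both wild-type libraries for 23 members (23.7% of all tested genes) and below both for 1 member (24.1%).

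In hdip1/2/3 the same 2 members, CRK45 and CRK41, rose at an adjusted P under 0.05 (4.35% of all tested genes rose) and none fell (2.82%). CRK45 was the only member called up by the study's rule (4.92% of all tested genes), and 0 were called down (4.07%). With no fold limit, 3 members were higher at an unadjusted P under 0.05 (15.1%) and 2 were lower (15.5%). These last shares were below those of all tested genes, while the fitted difference was above 0 for 25 of 41 members, against 49.2% of all tested genes. The median log2 fold change was 0.14 (quartiles −0.20 and 0.54), against −0.11 for the tested genes of 1600 to 3100 nt, and 0.31 with the trend with transcript length and GC content removed. Both hdip1/2/3 libraries lay above both wild-type libraries for 9 members (30.7% of all tested genes) and below both for 5 (31.3%). The members called up beside CRK45 depended on which single library was left out. They included CRK25 and CRK33, which had at most 2 reads in any library, and no statement about the mutants can rest on those. The 2 comparisons share their wild-type libraries and are not independent of each other.

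CRK45, also named ARCK1, encodes a receptor-like cytosolic kinase of this family that lacks the outer DUF26 domains, is induced by ABA and osmotic stress, and acts with CRK36 in the response to both. Its gene, AT4G11890, lies at chr4:7147865-7149942 on the plus strand and has 6 exons. CRK45 stood at 383 and 232 adjusted counts in wild-type plants, 1165 and 1056 in hda19 plants, and 1039 and 721 in hdip1/2/3 plants. The mutant libraries were thus all higher than either wild-type library. The log2 fold change was 1.89 ± 0.27 (SE, n = 2 per genotype) in hda19, or 3.71-fold (limma adjusted P = 0.0156), and 1.54 ± 0.27 in hdip1/2/3, or 2.90-fold (adjusted P = 0.0232). The 2 mutants differed by 0.36 ± 0.27 (unadjusted P = 0.219). None of the 50-base words in its exons occurs elsewhere in the genome, and 40 bases of it overlap AT4G11900 on the opposite strand.

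CRK41 (AT4G00970, chr4:418327-421885, plus strand, 7 exons) is a family member with no role described here. It stood at 686 and 645 adjusted counts (wild-type), 1028 and 1356 (hda19), and 1287 and 1342 (hdip1/2/3). Both mutants lay above the wild-type and overlapped each other, and the differences were smaller than those of CRK45. The log2 fold change was 0.83 ± 0.16 in hda19, or 1.77-fold (limma adjusted P = 0.0416), and 0.98 ± 0.16 in hdip1/2/3, or 1.97-fold (adjusted P = 0.0204). In hda19 the rise of CRK41 missed the threshold with 0.1 in place of 1 added before the logarithm (adjusted P = 0.054), with no filter on low values (0.183) and with each pair of genotypes fitted alone (0.197), and over 8 alternatives the adjusted P was 0.00761 to 0.197. In hdip1/2/3 CRK41 missed it with no filter (0.125) and with pairs fitted alone (0.163). CRK45 missed it under the same 2 alternatives, at 0.172 and 0.164 in hda19 and at 0.169 and 0.189 in hdip1/2/3, and was still called by the fold rule in each. Without any 1 of the 6 libraries, no gene of the 23685 reached an adjusted P under 0.05. The difference then ranged from 0.63 to 1.03 in hda19 and from 0.94 to 1.02 in hdip1/2/3 for CRK41, and from 1.53 to 2.25 and from 1.17 to 1.90 for CRK45. CRK36, the described partner of CRK45, stood at 384 and 206 in wild-type plants, 566 and 543 in hda19 plants, and 555 and 334 in hdip1/2/3 plants. Its hda19 libraries lay above both wild-type libraries and its hdip1/2/3 libraries did not, with log2 differences of 0.97 ± 0.33 (adjusted P = 0.180) and 0.61 ± 0.33 (adjusted P = 0.255).

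**Figure D2:**
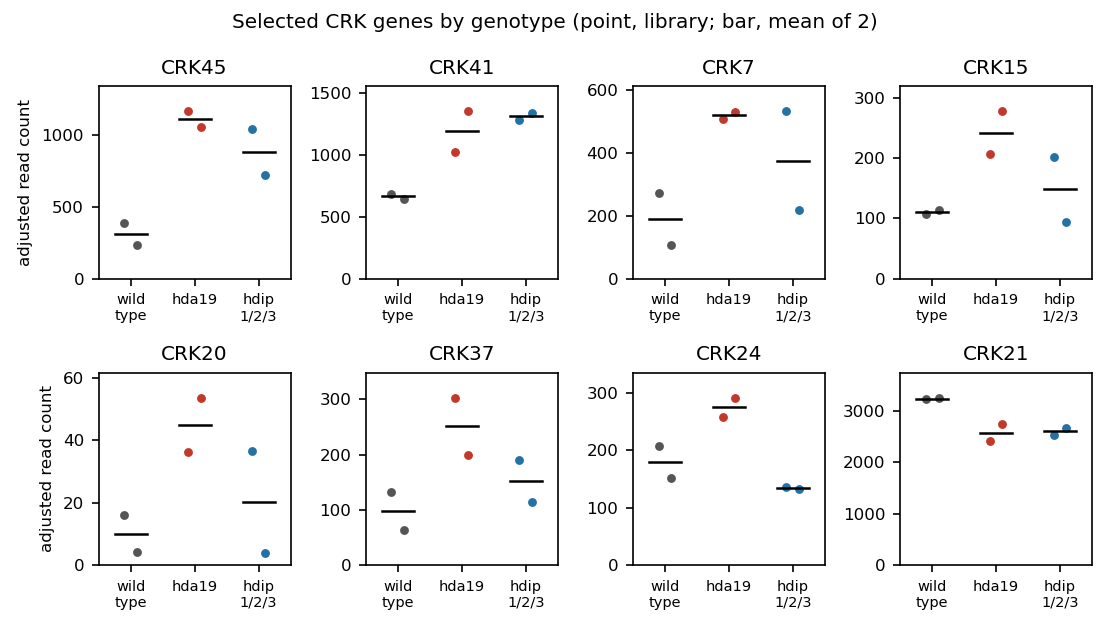
Adjusted read count by genotype for 8 CRK genes. Points are the 2 libraries and bars their mean, and each vertical axis starts at 0. The mutants lie above the wild-type for CRK45 and CRK41, hda19 lies above and hdip1/2/3 below the wild-type for CRK24, and CRK21 is lower in all 4 mutant libraries.

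CRK7 and CRK6 are neighbours in the large array, and both are known to protect plants against oxygen radicals outside the cell. CRK7 stood at 272 and 106 adjusted counts (wild-type), 509 and 530 (hda19), and 534 and 217 (hdip1/2/3). Both hda19 libraries lay above the wild-type, while replicate 2 of hdip1/2/3 was between the wild-type libraries. The log2 difference of CRK7 was 1.61 ± 0.51 in hda19 (unadjusted P = 0.0140, adjusted P = 0.15) and 1.0 ± 0.51 in hdip1/2/3 (unadjusted P = 0.0863). Leaving out single libraries moved these values between 0.93 and 2.28 and between 0.32 and 1.67, and with no filter on low values CRK7 lost its call in hda19 (unadjusted P = 0.0860). CRK6 stood at 685 and 360 in wild-type plants, 901 and 830 in hda19 plants, and 924 and 514 in hdip1/2/3 plants, and its differences of 0.80 ± 0.35 and 0.47 ± 0.35 were not called. In CRK6, 22.1% of the 50-base exon words occur more than once in the genome. The authors counted uniquely mapped reads, so reads without a unique place would be left out of its count.

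CRK4, CRK5, CRK19 and CRK20 are known to trigger cell death when overproduced, and CRK13 to raise resistance to bacteria through salicylic acid. Of these 5, CRK20 alone was called, in hda19. CRK20 was scarce, standing at 16.1 and 4.07 adjusted counts (wild-type), 36.1 and 53.6 (hda19), and 36.4 and 3.93 (hdip1/2/3). The hda19 libraries lay above the wild-type. Of the hdip1/2/3 libraries, replicate 1 was near hda19 replicate 1 and replicate 2 was near wild-type replicate 2. Its log2 difference in hda19 was 2.27 ± 0.98 (unadjusted P = 0.0497, adjusted P = 0.283), and it lost the call with median-of-ratios size factors (unadjusted P = 0.0503), with 0.1 added before the logarithm (0.0676) and with no filter on low values (0.166), with an adjusted P of 0.15 to 0.688 over 8 alternatives. Leaving out single libraries moved it between 1.40 and 3.15. The log2 differences of CRK4, CRK5, CRK13 and CRK19 in hda19 were 0.42, 0.36, 0.50 and 0.50, none with an unadjusted P under 0.05, and in hdip1/2/3 they lay between −0.20 and 0.16.

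The 2 remaining genes called in hda19 were CRK15 and CRK37. CRK15 stood at 108 and 114 adjusted counts in wild-type plants, 207 and 278 in hda19 plants, and 201 and 94.5 in hdip1/2/3 plants. Its log2 difference was 1.1 ± 0.37 in hda19 (unadjusted P = 0.0181, adjusted P = 0.171) and 0.31 ± 0.37 in hdip1/2/3. CRK37 stood at 132 and 63.8 (wild-type), 303 and 200 (hda19), and 190 and 114 (hdip1/2/3), with log2 differences of 1.41 ± 0.42 (unadjusted P = 0.0106, adjusted P = 0.131) and 0.67 ± 0.42. For both genes the hda19 libraries lay above the wild-type and the hdip1/2/3 libraries overlapped it. With no filter on low values, both lost the call (unadjusted P of 0.0702 for CRK15 and 0.0593 for CRK37), and with each pair of genotypes fitted alone CRK37 did (0.0519). The calls in hda19 also depended on single libraries, and the value of CRK37 ranged from 0.90 to 1.93 without 1 of them. Without wild-type replicate 2 or without hda19 replicate 2, CRK45 was the only member called up in hda19. Without hda19 replicate 1 or without wild-type replicate 1, the members called beside CRK45 were not the same. Without wild-type replicate 1 they included CRK25, with 0 to 2 reads per library, on which no statement about the mutants can rest.

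CRK28, whose product associates with the co-receptor BAK1, lies beside CRK29, and CRK2 acts on the oxidase RBOHD. CRK28 stood at 152 and 80.0 adjusted counts in wild-type plants, 155 and 275 in hda19 plants, and 155 and 135 in hdip1/2/3 plants. In the same order, CRK29 had 279 and 198, 285 and 461, and 288 and 208. In both genes hda19 replicate 2 was the highest library and hda19 replicate 1 barely passed the higher wild-type library. The log2 differences in hda19 were 0.90 ± 0.39 (unadjusted P = 0.0495, adjusted P = 0.282) and 0.62 ± 0.30, and the annotated genes share 470 bases on the same strand, where reads cannot be assigned to either. CRK2 had, in that order, 1318 and 1130, 1336 and 1792, and 1414 and 1005, a log2 difference of 0.34 ± 0.21 in hda19 and −0.03 ± 0.21 in hdip1/2/3.

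The fitted difference was below 0 for 4 members in hda19 and for 16 in hdip1/2/3. CRK21 was the 1 gene below both wild-type libraries in all 4 mutant libraries (14.8% of all tested genes), standing at 3223 and 3259 adjusted counts (wild-type), 2406 and 2753 (hda19), and 2531 and 2676 (hdip1/2/3). The separation was complete but small, at −0.33 ± 0.12 in hda19 and −0.32 ± 0.12 in hdip1/2/3 on the log2 scale (limma adjusted P of 0.193 and 0.119). With the trend with transcript length and GC content removed, the difference of CRK21 in hdip1/2/3 was −0.10 (unadjusted P = 0.398). CRK17, also named EMB1290 because its loss arrests embryos, had, in the same order of genotypes, 1474 and 1238, 1036 and 1276, and 1039 and 901, with −0.23 ± 0.16 and −0.48 ± 0.16 (unadjusted P of 0.192 and 0.0190). CRK16 and CRK17 share 1190 bases on the same strand, so their counts are not separate measurements there. The 3 members with the lowest mean difference, CRK32, CRK27 and CRK26, were scarce. CRK32 had 8 reads in the 2 wild-type libraries, 10 in hda19, all in replicate 2, and 0 in hdip1/2/3. In that order of genotypes, CRK27 had adjusted counts of 37.2 and 12.2, 17.5 and 29.6, and 15 and 2.53, and CRK26 had 23.1 and 6.10, 23.5 and 2.32, and 12.9 and 4.72. For CRK26 all 3 groups overlapped. For CRK27 each mutant overlapped the wild-type, while both hda19 libraries were above both hdip1/2/3 libraries.

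For 7 members, each of the 4 mutant libraries was higher than either wild-type library: CRK5, CRK11, CRK12, CRK14, CRK39, CRK41 and CRK45 (15.2% of all tested genes). CRK5 and CRK11 are among the members known to be induced by salicylic acid. CRK5 stood at 612 and 558 in wild-type plants, 658 and 860 in hda19 plants, and 688 and 621 in hdip1/2/3 plants. CRK11 had, in the same order, 238 and 250, 309 and 456, and 398 and 266. The gaps to the wild-type were narrow in these 2 genes, and among these 7 genes CRK5, CRK11, CRK12, CRK14 and CRK39 had adjusted P values of 0.171 to 0.588 in hda19 and of 0.181 to 0.548 in hdip1/2/3.

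Along the large array the differences from the wild-type did not run in parallel. From CRK5 to CRK16, the log2 difference was above 0 for 12 of 12 genes in hda19 (median 0.61) and for 11 of 12 in hdip1/2/3 (median 0.44). From CRK17 to CRK24, it was above 0 for 6 of 8 genes in hda19 (median 0.32) and for 1 of 8 in hdip1/2/3 (median −0.32), CRK20 being the exception. The border between these stretches was drawn after the values had been seen and was not tested, and both sets of values share the wild-type libraries. Over the whole array, 3 of 20 genes were called up in hda19 and 0 in hdip1/2/3, with medians of 0.50 and 0.15. Over all tested genes, 4.65% were called up in hda19 and 4.92% in hdip1/2/3. The medians were 0.26 and −0.04 in the array from CRK30 to CRK34, with 0 calls, 0.65 and 0.61 in the array from CRK36 to CRK40, with CRK37 called in hda19, and 0.60 and 0.06 in the 11 tested members outside the arrays. The 10 annotated genes on each side of the 3 arrays gave 28 tested genes with medians of 0.01 in hda19 and −0.20 in hdip1/2/3.

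**Figure D3:**
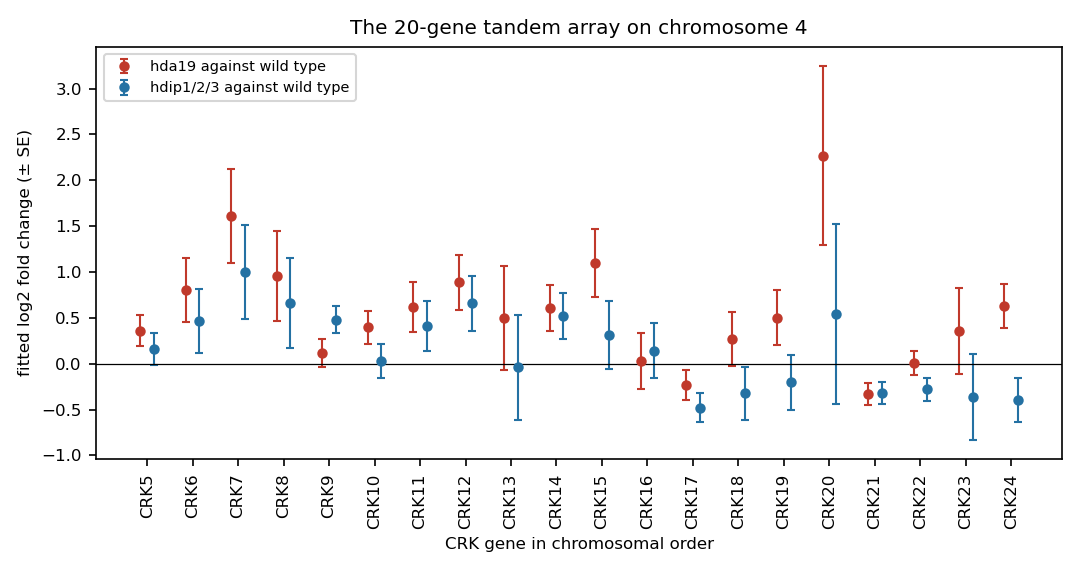
Fitted log2 fold change against the wild-type (± SE) of the 20 genes of the large array, in chromosomal order, for hda19 (red) and hdip1/2/3 (blue). Values for hda19 are above 0 from CRK5 to CRK16, and values for hdip1/2/3 are below 0 from CRK17 to CRK24 except CRK20.

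The direct contrast of the mutants gave 0 members and 0 of the 23685 genes with an adjusted P under 0.05 by limma-trend, and 0 by limma-voom. At an unadjusted P under 0.05, 3 members were higher in hda19 than in hdip1/2/3, CRK3, CRK19 and CRK24 (11.8% of all tested genes), and 0 were lower (10.1%). By the call rule CRK24 was the only one higher (2.49%) and 0 were lower (1.14%). The log2 difference was above 0 for 34 of 41 members (50.2% of all tested genes), with a median of 0.36, against 0.11 for the tested genes of 1600 to 3100 nt. CRK24 stood at 207 and 152 adjusted counts (wild-type), 258 and 292 (hda19), and 137 and 133 (hdip1/2/3). It was the 1 member with both hda19 libraries above and both hdip1/2/3 libraries below the wild-type (1.41% of all tested genes), and 0 members showed the converse (1.57%). Against the wild-type, CRK24 passed after adjustment in neither mutant (limma adjusted P of 0.22 in hda19 and 0.301 in hdip1/2/3). The hda19 libraries were both above the hdip1/2/3 libraries for 15 members (29.8%) and both below for 2 (30.2%). When single libraries were left out, CRK24 kept its direction, with a difference of 0.93 to 1.11, but not always its call. Which members were called depended on the library left out, and so did the share called higher over all tested genes.

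The 2 libraries of a genotype differed in CRK transcripts as a set. In the wild-type, replicate 1 was above replicate 2 for 34 of 41 members (47.2% of all tested genes), with a median log2 difference of 0.45. In hdip1/2/3, replicate 1 was above replicate 2 for 36 members (48.8%), with a median of 0.49. In hda19 the order was the other way, with replicate 1 above replicate 2 for 10 members (49.2%) and a median of −0.27. The same medians over all tested genes were 0.00, and over tested genes of 1600 to 3100 nt they were 0.05, 0.06 and −0.02. Taking the mean of the wild-type libraries as 0, the median member stood at 0.22 and −0.22 in the wild-type libraries, at 0.29 and 0.69 in hda19, and at 0.26 and −0.04 in hdip1/2/3. The hda19 libraries were thus the highest 2, but hda19 replicate 1, hdip1/2/3 replicate 1 and wild-type replicate 1 all stood between 0.22 and 0.29. The median over members in hdip1/2/3 was 0.33 without wild-type replicate 1 and −0.07 without wild-type replicate 2, and in hda19 it was 0.79 and 0.30.

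**Figure D4:**
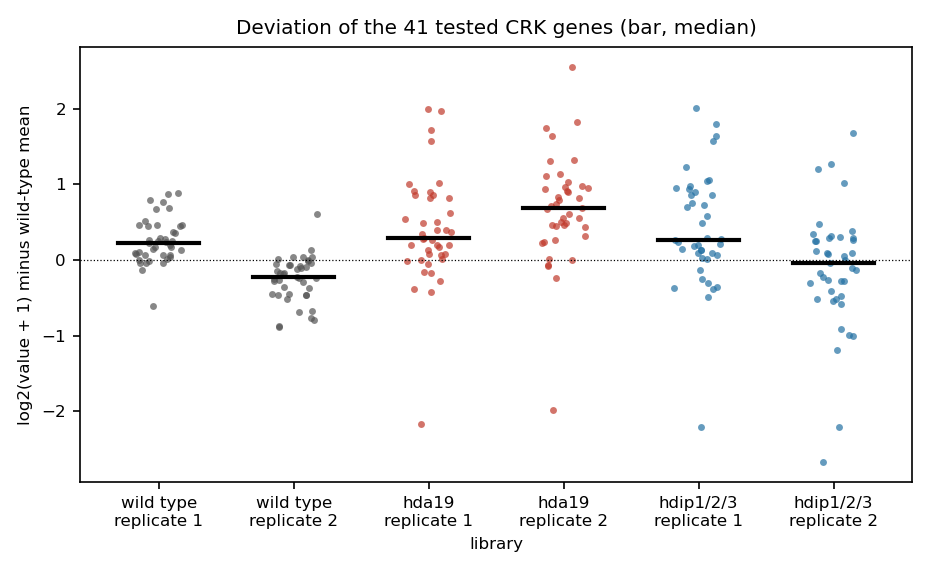
Deviation of each of the 41 tested CRK genes from its wild-type mean on the log2(value + 1) scale, by library, with the median as a black bar. The medians are 0.22 and −0.22 (wild-type), 0.29 and 0.69 (hda19), and 0.26 and −0.04 (hdip1/2/3).

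Differences between replicates went with transcript length across all tested genes, with Spearman coefficients of 0.33 (wild-type), −0.29 (hda19) and 0.31 (hdip1/2/3), a description over genes that share their libraries. CRK transcripts are longer than the typical gene. After the trend with transcript length and GC content was removed from each library, replicate 1 was above replicate 2 for 30 members (wild-type), 11 (hda19) and 30 (hdip1/2/3), with medians of 0.27, −0.17 and 0.34. The set-wide difference between replicates was thus smaller after the removal, and its direction was kept in each genotype. With the trend removed, 5 members were called up in hdip1/2/3, CRK7, CRK8, CRK39, CRK41 and CRK45 (3.93% of all tested genes), and 4 rose in hda19 at an adjusted P under 0.05, CRK7, CRK37, CRK41 and CRK45. In that fit 1937 of the 23685 genes passed this threshold in hda19 in either direction, against 673 without the removal.

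Among 8 genes of proteins described as partners or targets of CRKs, 1 rose in hda19 (2.15% of all tested genes) and none in hdip1/2/3 (4.35%). The median log2 differences were 0.38 and 0.08. The gene that rose was FLS2, the receptor of bacterial flagellin, standing at 628 and 535 in wild-type plants, 926 and 1148 in hda19 plants, and 773 and 764 in hdip1/2/3 plants (0.83 ± 0.16 in hda19, limma adjusted P = 0.0422). EFR, the receptor of a bacterial elongation factor, was called up in hda19 by the fold rule (4.65% of all tested genes). Its log2 difference was 1.03 ± 0.22 (limma adjusted P = 0.0586). RBOHD, the oxidase that CRK2 acts on, had, in the same order, 3773 and 3550, 3070 and 3936, and 3478 and 3605, and the groups overlapped. Of 36 genes for DUF26 proteins without a kinase, 8 were tested, with medians of −0.28 in hda19 and 0.09 in hdip1/2/3. PDLP4 had 4 and 4 reads (wild-type), 0 and 0 (hda19), and 6 and 0 (hdip1/2/3). It was called down in hda19 by the fold rule (2.09% of all tested genes), with a limma adjusted P of 0.258. The 1 that rose, in hdip1/2/3 (4.35% of all tested genes), was PDLP5 (listed as HWI1), a plasmodesmal protein. PDLP5 stood at 228 and 187 (wild-type), 347 and 321 (hda19), and 485 and 355 (hdip1/2/3). Its log2 difference in hdip1/2/3 was 1.0 ± 0.22 (limma adjusted P = 0.0411). With each pair of genotypes fitted alone, no gene passed in either mutant, FLS2 and PDLP5 included. In the wall-associated kinase cluster, a second tandem set of receptor kinases, 4 of 5 genes were tested, none rose or fell at an adjusted P under 0.05, and the medians were 0.49 and 0.31. WAK3 was called up in hda19 by the fold rule (4.65% of all tested genes), at 1.21 ± 0.37 (limma unadjusted P = 0.0116, adjusted P = 0.137).

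Near-identical copies limit single members of this family. At least 1 50-base word of the exons recurs in the genome for 26 of the 42 genes, with 22.1% in CRK6, 16.2% in CRK8, 16.2% in CRK22 and 15.4% in CRK13 as the highest shares, and 6.73% in CRK20. Words of 150 bases recur only in these first 4, at 5.51% in CRK6, 6.78% in CRK8, 9.98% in CRK22 and 8.31% in CRK13. The labels give single reads of 50 nt and the methods paired reads of 150 nt, so both lengths are given. Among recovered read counts of 1 to 20, 59.2% were even. Whether both reads of a pair were counted was not tested.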

How the data were processed

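RNA-seq was measured in 6 libraries of 3 genotypes. The authors mapped reads with HISAT2 to TAIR10, counted uniquely mapped reads per gene and used edgeR. The deposited values, a signal per gene, carry no named normalization. They fitted read counts adjusted to a common library size, since whole reads were recovered from all 195288 values within 0.01. Genes were identified by locus number, and all 32548 matched the RefSeq annotation. Genes reaching a mean of 1 in any genotype were tested on log2(value + 1) with limma 3.58.1 (R 4.3.3, trend on the mean, 6 libraries in 1 fit), with Benjamini-Hochberg adjustment over 23685 genes, after a check on simulated data. Adding 1 understates the change of scarce genes. No exact test of 2 against 2 libraries can give a P under 0.333. "Rose" and "fell" mean an adjusted P under 0.05. Alternatives covered scaling, filters, the added constant, separate pairs, a replicate block, limma-voom on recovered reads, length and GC content, and single libraries. Members named were those called or rising, the 3 lowest, the 3 most abundant and those at 0. Others were named for a described role or position after their values were seen. Members and lists were chosen with earlier results of these data known. Strand use in counting is not given in the sources used here.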

Additional observations from a re-analysis of the deposited data

Results flagged for a closer look

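CRK24, the last gene of the large array, was singled out because the 2 mutants lay on opposite sides of the wild-type. Both hda19 libraries (258 and 292 adjusted counts) were above, and both hdip1/2/3 libraries (137 and 133) below, the wild-type libraries (207 and 152). Neither mutant passed against the wild-type after adjustment. The log2 differences were 0.63 ± 0.24 in hda19 (limma unadjusted P = 0.0305, adjusted P = 0.22) and −0.39 ± 0.24 in hdip1/2/3 (unadjusted P = 0.14, adjusted P = 0.301). The difference between the mutants was 1.02 ± 0.24 on the log2 scale (limma, unadjusted P = 0.00291, adjusted P = 0.188), so it did not pass after adjustment. It ranged from 0.93 to 1.11 when single libraries were left out and from 0.91 to 1.02 under the other 8 alternatives, with adjusted P between 0.135 and 0.705. Of the exon words of 50 bases in CRK24, 1.13% occur more than once in the genome.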

How the results depend on the processing

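CRK45 was called up in both mutants under all 14 alternatives. With no filter on low values, 1 member was called up in hda19 (2.89% of all 32548 genes). At an adjusted P under 0.05, 0 members rose in hda19 and 0 in hdip1/2/3, where 91 and 67 of all genes passed in either direction. With 0.1 added in place of 1, CRK32 alone was called down in hdip1/2/3 (1 member) and 1 member, CRK45, rose in hda19. With each pair of genotypes fitted alone, 1 member (CRK32) was called down in hdip1/2/3 and 0 rose in either mutant, as for every other gene. With the trend with length and GC content removed, 5 members were called up in hdip1/2/3 (3.93% of all tested genes), where the median was 0.31. In that fit 4 rose in hda19, where 1937 of 23685 genes passed against 673, and 0 were called higher in hda19 than in hdip1/2/3 (1.99%). Leaving out single libraries gave 1 to 6 members called up and 0 to 1 called down in hda19, 1 to 4 up and 0 to 1 down in hdip1/2/3, and 0 to 6 higher and 0 to 1 lower in hda19 than in hdip1/2/3. It gave 0 to 0 members that rose or fell in either mutant, and medians of 0.29 to 0.79 in hda19 and −0.07 to 0.33 in hdip1/2/3. The cause was not tested. With a replicate block, 5 members were called up in hda19 (4.61% of all tested genes) and 1 in hdip1/2/3 (4.85%). At an adjusted P under 0.05, 3 and 2 members rose, CRK37 being added, where 662 and 2068 of all tested genes passed in either direction. Same-numbered replicates had deviations correlated at −0.078, 0.128 and −0.075, so the numbers were not taken as pairs. A call was counted here under the fold rule or at an adjusted P under 0.05. CRK45 with no filter was thus counted as kept, although its adjusted P was no longer under 0.05. Among values of single genes, 466 kept their direction and their status as called or not called. Of the others, 40 lost a call, 11 gained one and 26 changed sign, all 26 without a call on either side. The mutants' difference in CRK26 became −0.07 with 0.1 added, −0.01 by limma-voom and −0.14 with the trend removed, and that in CRK40 became −0.18 with the trend removed. The others changed sign when 1 library was left out. In hda19 the ranges were −0.01 to 0.26 (CRK9), −1.98 to 0.91 (CRK26), −0.68 to 0.85 (CRK27), −2.16 to 1.13 (CRK32) and −0.03 to 0.33 (CRK40). In hdip1/2/3 they were −0.23 to 0.85 (CRK15), −0.92 to 2.01 (CRK20), −1.44 to 0.33 (CRK26) and −0.15 to 0.20 (CRK40). Between the mutants they were −0.04 to 1.26 (CRK7), −0.11 to 0.08 (CRK21), −1.43 to 1.46 (CRK26) and −0.35 to 0.04 (CRK41). Each genotype had 2 libraries, and replicate differences were shared across the family. The hdip1/2/3 median (0.14) was smaller in size than the median replicate difference over members in the wild-type (0.45), hda19 (−0.27) and hdip1/2/3 (0.49). The medians were described and not tested.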
